A study of Homo sapiens with 4 samples.

Results

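The 2'-5'-oligoadenylate synthetase (OAS) family, which comprises the enzymes OAS1, OAS2 and OAS3 and the related protein OASL, was examined in prostate cancer cells carrying a short hairpin RNA against TNFRSF13B. The members were taken by gene symbol from the probe set annotation, which gave 4 genes of the 17687 named on the arrays, each with 1 probe set. The family was chosen by the log2 ratios and levels measured on these same arrays, so all values of its members below are descriptions and no test was made on them.

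OAS proteins are induced by interferon and bind double-stranded RNA. The bound enzymes join ATP into short chains with 2'-5' linkages, called 2-5A, a second messenger that sets off the cutting of single-stranded RNA of the cell and of an invading virus. OAS1 has a single catalytic unit and OAS2 and OAS3 carry tandem copies of that unit, whereas human OASL has lost the enzymatic activity, carries ubiquitin-like domains and binds the RNA sensor RIG-I.

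RNA of both lines, PC-3 and 22Rv1, was measured once with shTNFRSF13B and once with the empty vector, on 4 arrays in all. The sample labels call the conditions shCD267 and Ctrl, CD267 being another name of TNFRSF13B, a receptor of the tumour necrosis factor receptor superfamily. Both are established human prostate cancer lines; PC-3 grows without androgen and lacks p53, which 22Rv1 expresses, and they were kept in F-12 and RPMI media respectively. Both lines were transduced with pLKO.1 lentivirus and selected with puromycin for stable carriage of the construct. The methods give 1 target sequence for the hairpin, and the control vector held no hairpin, so that loss of TNFRSF13B and the presence of a hairpin RNA cannot be told apart. As no condition was repeated, no value below has a replicate error, and precision is limited by having 1 array for each. The RNA came from whole cultures, in which fewer cells of a type and less RNA per cell cannot be told apart.

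The deposited values are log2 expression values, and for each line the log2 ratio below subtracts the empty vector array from the shTNFRSF13B array. The 22Rv1 empty vector array had a lower median over all probe sets, 5.33, than the other 3 arrays, 6.93 to 7.01, and the median log2 ratio over all genes was 1.22 in 22Rv1 cells against -0.0019 in PC-3 cells. Values are therefore also given after quantile normalization, which gives the 4 arrays a common distribution. As a limit for dim probe sets, the 95th percentile of 348 olfactory receptor genes was taken on each array, between 3.91 and 5.30 as deposited. TNFRSF13B itself was measured in PC-3 cells at 4.85 with the hairpin and 5.25 without it, and in 22Rv1 cells at 5.63 and 6.08. The limits on the PC-3 arrays were 4.98 and 4.92, so that TNFRSF13B lay under the limit with the hairpin and slightly above it without. The PC-3 ratio is thus measured almost against background. The paper reported by western blot that TNFRSF13B protein was lower with the hairpin in both lines. The deposited log2 ratios of TNFRSF13B were -0.40 for PC-3 and -0.45 for 22Rv1, the latter becoming -2.20 with quantile normalization. Among the line markers, VIM was between 14.76 and 15.47 in PC-3 cells and at most 6.50 in 22Rv1 cells, whereas FOLH1 was at most 3.96 in PC-3 cells and at least 14.28 in 22Rv1 cells. Of the other measured luminal markers STEAP2 was also higher in 22Rv1 cells, but HOXB13 was higher in PC-3 cells (12.40 and 12.23 against 9.89 and 7.72), and KLK3 had no one order, at 6.91 and 6.99 against 7.54 and 6.38.

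The start regions of OAS1 and OAS3 are shown because the interferon-stimulated response element, the site through which interferon regulatory factors act, is built from repeated GAAA half-sites. Each sequence runs from 250 bases before to 50 bases after the RefSeq gene start, on the plus strand of chromosome 12 of GRCh38.p14. They lie at chr12:112906712-112907011 for OAS1 and at chr12:112938224-112938523 for OAS3. Capitals mark matches to GAAANGAAA or GAAANNGAAA, 2 half-sites 1 or 2 bases apart, searched on both strands. Of the 4 members, OAS1 and OAS3 were matched in the RefSeq promoter table. OAS2 and OASL were not matched there.
OAS1: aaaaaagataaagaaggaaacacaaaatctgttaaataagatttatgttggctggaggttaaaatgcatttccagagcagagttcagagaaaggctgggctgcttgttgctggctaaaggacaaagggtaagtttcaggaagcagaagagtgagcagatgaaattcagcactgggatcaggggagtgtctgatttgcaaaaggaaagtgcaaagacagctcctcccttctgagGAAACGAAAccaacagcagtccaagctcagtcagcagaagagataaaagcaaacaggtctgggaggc
OAS3: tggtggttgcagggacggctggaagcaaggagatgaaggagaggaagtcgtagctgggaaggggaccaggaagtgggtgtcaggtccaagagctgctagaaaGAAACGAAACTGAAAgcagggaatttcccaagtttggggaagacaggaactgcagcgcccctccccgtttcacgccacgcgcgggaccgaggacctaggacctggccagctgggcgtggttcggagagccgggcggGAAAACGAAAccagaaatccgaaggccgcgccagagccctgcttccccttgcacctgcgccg

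The OAS1 sequence held 1 match, GAAACGAAA, from base -17 to base -9 relative to the gene start. The OAS3 sequence held 3 matches, GAAACGAAA from -148 to -140, the overlapping GAAACTGAAA from -143 to -134, and GAAAACGAAA from -12 to -3. Among the 14250 measured genes with a sequence in the table, 2.79% held GAAANGAAA and 3.11% held GAAANNGAAA, and 0.323% held both, as OAS3 did. A match is a description of the letters and not of a bound site.

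In PC-3 cells all 4 members of the family were far higher with shTNFRSF13B than with the empty vector. The values of each array and the dim limits are drawn in the plot of OAS levels. OAS1, the single-unit enzyme, was measured at a log2 value of 15.26 with shTNFRSF13B and 6.75 with the empty vector. Its log2 ratio of 8.51, a 364-fold difference, was the 4th highest of the 17687 genes. OAS2, an enzyme of tandem units, stood at 13.49 and 5.10, a log2 ratio of 8.40 or 338-fold, and ranked 5th. The OAS2 empty vector value was close to the olfactory receptor limit of that array, 4.92, so that the size of this ratio is measured almost against background.

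OAS3, the longest member of the family, showed a smaller ratio than the other 2 enzymes. It was measured at 13.64 with shTNFRSF13B and 8.44 with the empty vector, which is a ratio of 5.20 on the log2 scale, or 36.6-fold, with rank 23. OASL, the member without enzymatic activity, was at 11.13 and 6.07, a log2 ratio of 5.06, or 33.5-fold, with rank 26. The family thus split into a pair with log2 ratios above 8 and a pair with ratios slightly above 5, with a range of 3.44 between OAS1 and OASL.

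**Figure D1:**
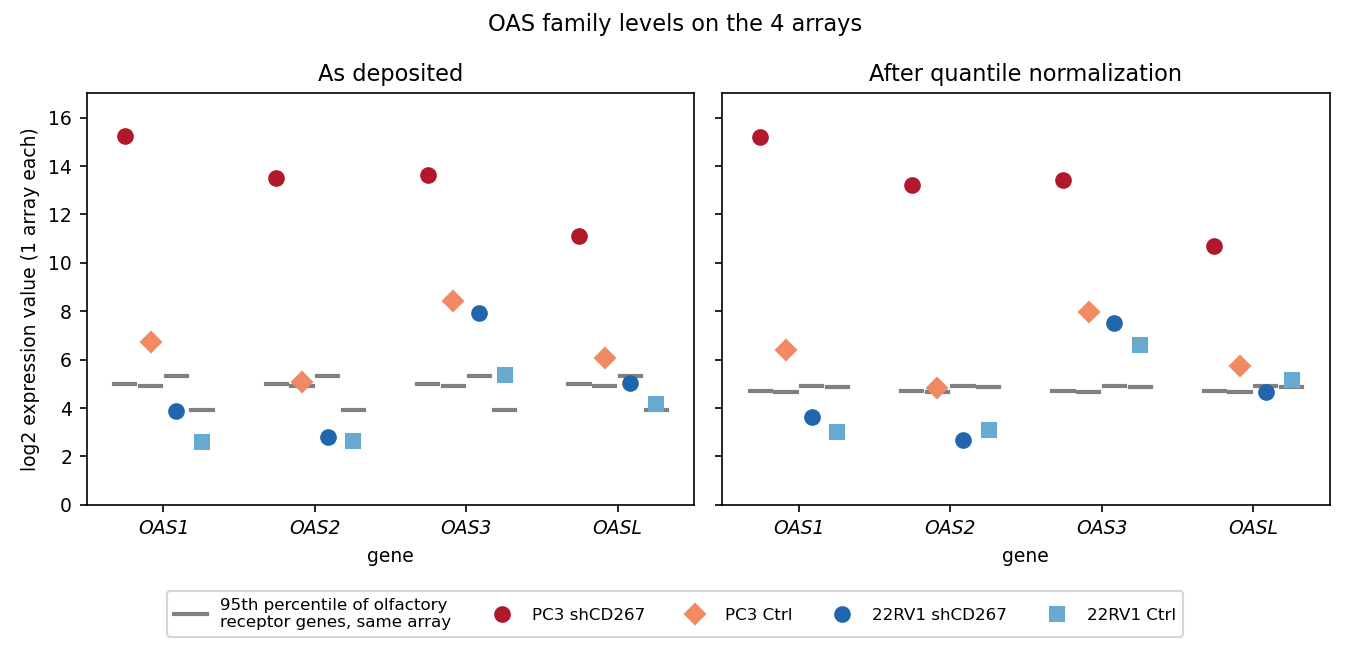
Log2 expression values of OAS1, OAS2, OAS3 and OASL on each of the 4 arrays, as deposited (left) and after quantile normalization (right); each point is 1 array and the grey bars mark the olfactory receptor limit (95th percentile) of that array. The PC3 shCD267 array stands between 11.13 and 15.26 as deposited, above the other 3 arrays for every member, whereas OAS1 and OAS2 lie below the grey bars on both 22RV1 arrays.

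After quantile normalization the PC-3 log2 ratios were 8.79 for OAS1, 8.41 for OAS2, 5.48 for OAS3 and 4.96 for OASL, with ranks 4, 5, 19 and 31. By the study's criterion of a change of at least 2-fold, 4 of 4 members were higher in PC-3 cells on either scale. Over all genes, 5.76% passed 2-fold upwards and 4.69% downwards on the deposited scale. On the quantile-normalized scale these shares were 5.87% and 4.25%. The median log2 ratio of the members was 6.80 as deposited and 6.94 after quantile normalization, beside -0.0019 and 0.0078 over all genes. Since the contrast itself was used in choosing the family, nothing further is read from these counts.

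In 22Rv1 cells OAS3 was the sole member above the olfactory receptor limit on both arrays. It was measured at 7.94 with shTNFRSF13B and 5.38 with the empty vector, which is a ratio of 2.56 on the log2 scale, or 5.89-fold, as deposited. This was 1.34 above the median of all genes in that line, and 11.9% of genes had a higher ratio. After quantile normalization its values were 7.52 and 6.60 and its log2 ratio was 0.92, or 1.89-fold, with 15.1% of genes higher. OAS3 was thus higher with shTNFRSF13B on both scales but passed 2-fold only as deposited.

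OAS1 and OAS2 were dim on both 22Rv1 arrays. OAS1 was at 3.86 with shTNFRSF13B and 2.60 with the empty vector, where the limits were 5.30 and 3.91, and OAS2 was at 2.79 and 2.63. Their log2 ratios, 1.26 and 0.16 as deposited and 0.59 and -0.38 after quantile normalization, lie between values under the limit and give no fold. OASL was at 5.01 with shTNFRSF13B, under its limit, and at 4.15 with the empty vector, just above its limit. The log2 ratio of OASL was 0.86 as deposited and -0.49 after quantile normalization, so that its direction in 22Rv1 cells depended on the scale of the arrays.

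The deposited 22Rv1 values put 2 of the 4 members (OAS1 and OAS3) past 2-fold upwards, the quantile-normalized values 0, and neither scale put a member past it downwards. Over all genes in that line, the deposited scale put 58.3% past 2-fold upwards and 2.01% downwards. On the quantile-normalized scale the shares were 13.3% upwards and 15.5% downwards. The median log2 ratio of the members, 1.06 as deposited and 0.10 after quantile normalization, was near that over all genes, 1.22 and -0.06. The shares of members past 2-fold in 22Rv1 cells were thus not above the background of the arrays. In the plot of ratios by scaling, the PC-3 values hardly moved, whereas the 22Rv1 values shifted under quantile normalization, median centring and loess. Centring on the spike-in probe sets left the 22Rv1 values nearly as deposited, with OAS1 at 1.24 and OAS3 at 2.54 and 2 members past 2-fold.

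**Figure D2:**
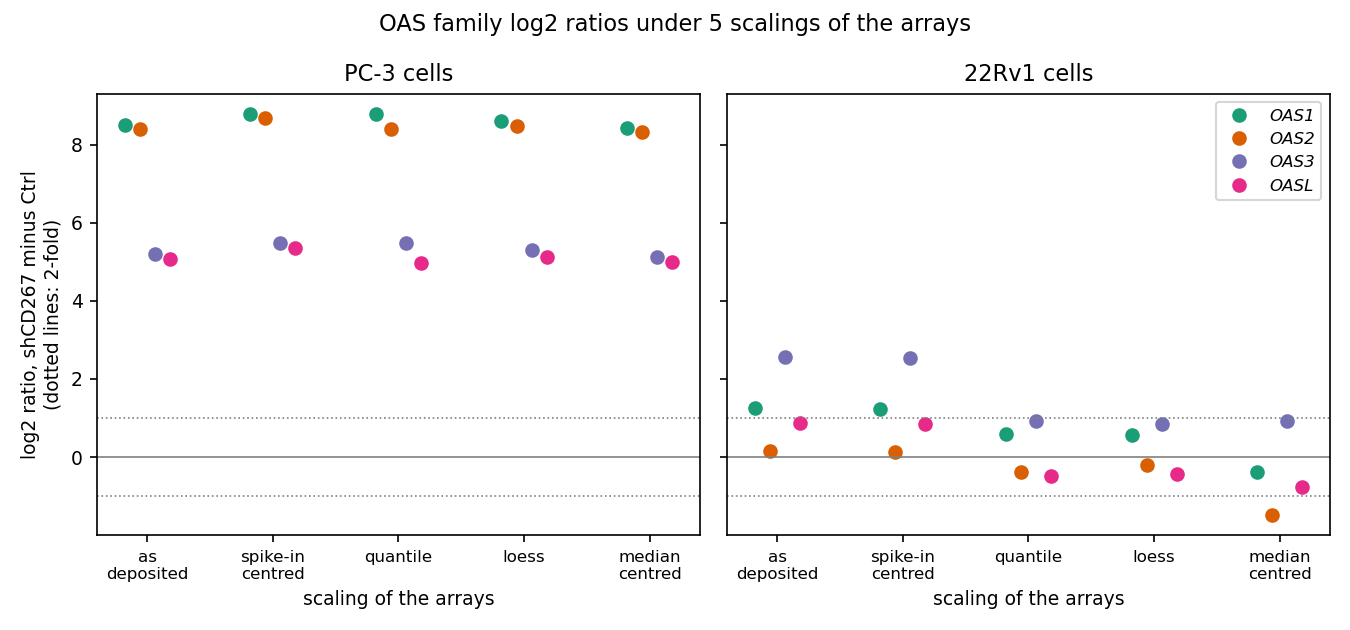
Log2 ratios (shCD267 minus Ctrl) of OAS1, OAS2, OAS3 and OASL in PC-3 cells (left) and 22Rv1 cells (right) under 5 scalings of the arrays; each point is the difference of 2 arrays and the dotted lines mark 2-fold. In PC-3 cells OAS1 and OAS2 stay above 8 and OAS3 and OASL near 5, whereas in 22Rv1 cells OAS3 goes from 2.56 as deposited to 0.92 after quantile normalization.

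The lines also differed in the family's level in the absence of the hairpin. With the empty vector and after quantile normalization, OAS1 stood at 6.39 in the PC-3 line against 3.02 in 22Rv1. The 22Rv1 value lay under its limit of 4.85, which makes OAS1 at least 2.91-fold higher in PC-3 cells when the limit is set in its place. OAS3 was at 7.95 and 6.60, or 2.54-fold higher in PC-3 cells, and OASL at 5.74 and 5.14, or 1.51-fold. OAS2 was at 4.83 in PC-3 cells, no higher than the 22Rv1 limit of 4.85, and gives no fold between the lines. As deposited the differences were larger, 3.06 on the log2 scale for OAS3 and 1.91 for OASL.

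With shTNFRSF13B the gap between the lines was wider for every member. After quantile normalization OAS1 was at 15.19 in PC-3 and 3.61 in 22Rv1 cells, at least 1223-fold higher in PC-3 cells when the 22Rv1 value is set to its limit of 4.93. OAS2, at 13.24 and 2.69, was at least 317-fold higher, and OASL, at 10.70 and 4.65, at least 54.5-fold. OAS3, at 13.42 and 7.52 and measured above the limit in both lines, was 59.8-fold higher. The PC-3 log2 ratio of OAS3 exceeded its 22Rv1 log2 ratio by 2.64 as deposited and by 4.56 after quantile normalization. With 1 array per condition this difference between the lines was not tested.

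OAS1, OAS3 and OAS2 stand next to each other on chromosome 12 in the RefSeq order, and OASL lies apart from them on the same chromosome. The 5 nearest measured protein-coding genes on each side of the cluster and of OASL were set beside the family, as drawn in the plot of chromosomal neighbours. None of the 20 neighbours was at least 2-fold higher in PC-3 cells on either scale, beside 5.76% and 5.87% of all genes. Their median log2 ratio was -0.28 as deposited, with a highest value of 0.91, that of P2RX4, an ATP-gated ion channel. PTPN11, which encodes the phosphatase SHP2, was the sole neighbour past 2-fold in PC-3 cells, beside 4.69% of all genes lower as deposited. It was at 12.35 with shTNFRSF13B and 14.38 with the empty vector, which is a ratio of -2.03 on the log2 scale. RPH3A and DTX1, the genes directly flanking the cluster, had PC-3 log2 ratios of 0.26 and -0.43, whereas SPPL3 and P2RX7, directly flanking OASL, had -0.0014 and -0.10, but RPH3A and DTX1 were under the olfactory receptor limit on all 4 arrays and P2RX7 on both PC-3 arrays. TRAFD1, a regulator of innate immune signalling a few genes away from OAS1, had a log2 ratio of 0.26 in PC-3 cells.

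In 22Rv1 cells 10 of the 20 neighbours were at least 2-fold higher as deposited, beside 58.3% of all genes. Their median log2 ratio was 1.07, close to that of the OAS members. After quantile normalization 2 were higher (DDX54 and SPPL3) and 3 lower (RPH3A, P2RX7 and P2RX4), with a median of -0.23. The shares of all genes there were 13.3% higher and 15.5% lower.

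**Figure D3:**
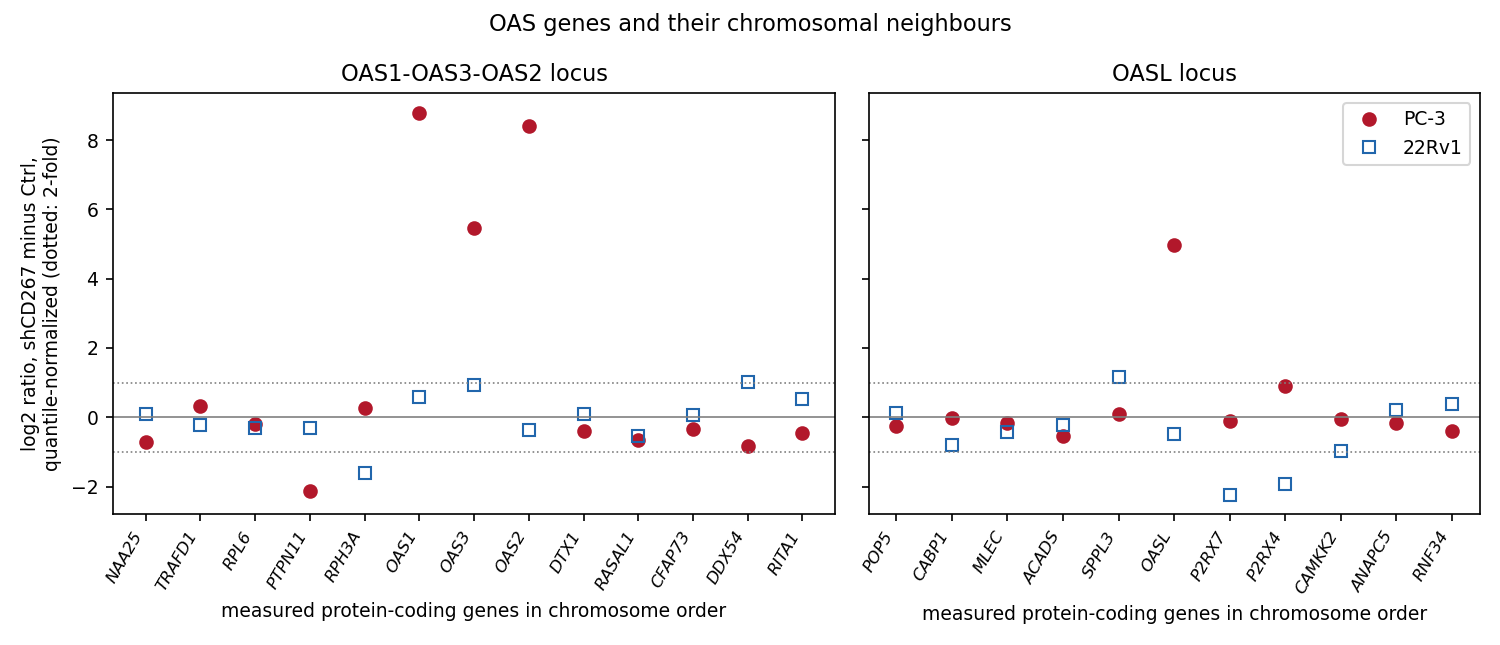
Log2 ratios (shCD267 minus Ctrl, quantile-normalized) of the OAS genes and the 5 nearest measured protein-coding genes on each side, in RefSeq order, for the OAS1-OAS3-OAS2 cluster (left) and OASL (right); red points are PC-3 cells, blue squares 22Rv1 cells and dotted lines 2-fold. In PC-3 cells the 4 OAS genes stand between 4.96 and 8.79, whereas no neighbour is above 0.89.

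Genes of the 2-5A turnover list did not share the PC-3 pattern. Of the 5 measured genes of 6 listed, none was at least 2-fold higher or lower in PC-3 cells, beside 5.76% and 4.69% of all genes. The median log2 ratio of the list was -0.52 as deposited. ABCE1, a ribosome recycling factor, was at 13.56 with shTNFRSF13B and 14.08 with the empty vector in PC-3 cells. PDE12, a phosphodiesterase that degrades 2-5A, was at 11.19 and 10.75. AKAP7, whose central domain resembles a 2'-5' phosphodiesterase, was at 5.24 and 6.03, with CNP at 10.65 and 10.43 and the ectoenzyme ENPP1 at 9.20 and 9.94.

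In 22Rv1 cells CNP and ENPP1 were at least 2-fold higher as deposited, at log2 ratios of 2.59 and 3.09, beside 58.3% of all genes. After quantile normalization ENPP1 was higher, at 1.33, whereas PDE12 and AKAP7 were lower, at -1.09 and -1.19, and CNP and ABCE1 stood at 0.83 and -0.42. Of all genes 13.3% were higher and 15.5% lower on that scale. ABCE1, PDE12 and AKAP7 changed sign between the scales in that line.

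Of 21 measured genes of interferon signalling, 5 were at least 2-fold higher and none lower in PC-3 cells, with a list median of 0.42. Of all genes 5.76% were higher and 4.69% lower there. IRF9, a DNA-binding factor of the type I interferon response, was at 12.49 with shTNFRSF13B and 7.03 with the empty vector, which is a ratio of 5.46 on the log2 scale. USP18, a negative regulator of the interferon receptor, was at 11.41 and 6.10 (5.31), and IRF1 was at 8.73 and 5.18 (3.56). The other 2 were IRF7 and IRF2, at log2 ratios of 2.18 and 1.57, where the empty vector value of IRF7 was under the olfactory receptor limit. The receptor genes IFNAR1 and IFNAR2 had PC-3 log2 ratios of -0.24 and 0.48. On the deposited scale 13 of these genes passed 2-fold upwards in 22Rv1 cells and STAT3, a transcription factor of cytokine signalling, passed it downwards (6.66 and 8.78, a log2 ratio of -2.12). Quantile normalization left none higher there, with STAT3 (-3.83) and IFNGR2 (-1.05) lower. Over all genes in 22Rv1 cells, 58.3% passed 2-fold upwards and 2.01% downwards as deposited. After quantile normalization the shares were 13.3% and 15.5%.

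Of the interferon genes themselves, at most 4 of 20 exceeded the olfactory receptor limit on any array. Of these 20 measured interferon ligands, none was at least 2-fold higher in PC-3 cells, beside 5.76% of all genes. Their median log2 ratio was -0.02, and IFNA16, at 2.76 and 3.84, was lower as deposited, beside 4.69% of all genes. IFNB1 was at 4.99 with shTNFRSF13B and 4.62 with the empty vector in PC-3 cells, where the limits were 4.98 and 4.92. The type III interferons IFNL1, at log2 ratio 0.75, and IFNL3, at log2 ratio 0.67, were slightly above these limits on both PC-3 arrays. In 22Rv1 cells none of the 20 was above the limit on the shTNFRSF13B array and 1 (IFNL3) was on the empty vector array. On the deposited scale 9 passed 2-fold upwards in 22Rv1 cells, beside 58.3% of all genes. After quantile normalization 13.3% of all genes passed it upwards and 15.5% downwards. Quantile normalization left IFNA7 higher (1.66) and IFNA5 and IFNA6 lower (-1.29 and -1.57), and IFNA2 stood at 0.96, all 4 under the limit on every array.

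Other proteins that bind double-stranded RNA, the ligand of the OAS enzymes, divided in PC-3 cells. Of 17 measured genes, 5 were at least 2-fold higher as deposited and none lower, with a median log2 ratio of 0.21. Of all genes 5.76% were higher and 4.69% lower. STAU2 joined these 5 after quantile normalization, at 1.02. The 5 were the sensors IFIH1 (13.26 and 5.70, a log2 ratio of 7.57), RIGI (14.02 and 9.04, 4.98) and TLR3 (7.66 and 4.58, the latter under the limit), the kinase EIF2AK2, known as PKR (15.09 and 12.37, 2.72), and ZNFX1 (2.81). The microRNA processing genes DROSHA and DICER1 had log2 ratios of 0.02 and 0.38, and the editing enzyme ADAR had 0.72. DHX58, a regulator of RIG-I-like sensors, was at 5.78 and 5.83. In 22Rv1 cells 15 passed 2-fold upwards on the deposited scale, whereas 4 did so with quantile normalization, where the list median was 0.39. The shares of all genes were 58.3% as deposited and 13.3% after quantile normalization. RIGI, the sensor that OASL binds, had 22Rv1 log2 ratios of 3.48 and 1.99 on these scales.

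Proteins that share the nucleotidyltransferase fold with the OAS enzymes were mostly near 0 in PC-3 cells. Of 23 measured relatives, 3 were at least 2-fold higher (TENT5A, TENT5C and TUT7) and 1 was lower (MB21D2), with a median log2 ratio of 0.05. The shares of all genes were 5.76% and 4.69%. CGAS, a DNA sensor whose fold resembles that of OAS1, was at 8.86 with shTNFRSF13B and 9.05 with the empty vector. TENT5C, a poly(A) polymerase, was at 6.12 and 3.41, the latter under the limit. On the deposited scale 13 of them passed 2-fold upwards in 22Rv1 cells and 1 downwards (TENT5A, 6.98 and 10.24), beside 58.3% and 2.01% of all genes. With quantile normalization ITPRIPL1 alone was higher (1.43) and 3 were lower, among them TENT5D (-1.86), beside 13.3% and 15.5% of all genes. CGAS was under the limit on both 22Rv1 arrays.

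Of 21 other measured genes of RNA decay, 7 were at least 2-fold higher and none lower in PC-3 cells, with a median log2 ratio of 0.54. Of all genes 5.76% were higher and 4.69% lower there. ZC3HAV1, a zinc finger antiviral protein, was at 12.10 and 9.69 (2.41), and the nucleotide hydrolase SAMHD1 was at 13.97 and 12.42 (1.56). The others were N4BP1, PNPT1, DIS3, SLFN11 and XRN1, between 1.02 and 1.34. In 22Rv1 cells the deposited scale put 13 past 2-fold upwards and ERN1, the RNase of the unfolded protein response, downwards (6.89 and 7.94). With quantile normalization 4 stood higher and 3 lower, ERN1 at -2.82. The shares of all genes passing 2-fold upwards in 22Rv1 cells were 58.3% as deposited and 13.3% after quantile normalization, and downwards 2.01% and 15.5%. SLFN11, at 10.84 and 4.70, and SLFN13, at 9.70 and 2.34, had the largest 22Rv1 log2 ratios of this list, 4.66 and 6.71 after quantile normalization, where the empty vector value of SLFN13 was under the limit. The plot of gene lists sets these groups beside the OAS family.

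**Figure D4:**
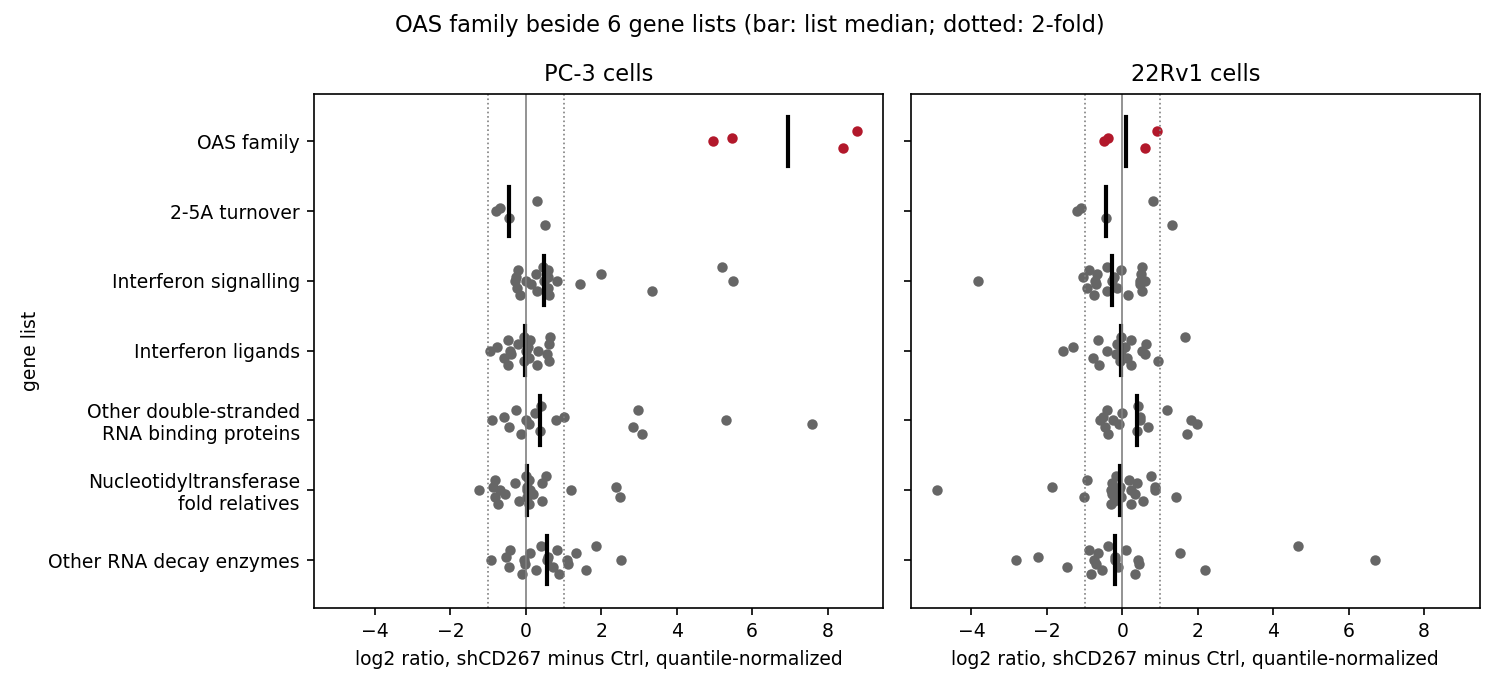
Log2 ratios (shCD267 minus Ctrl, quantile-normalized) of the OAS family (red) and of 6 gene lists (grey) in PC-3 cells (left) and 22Rv1 cells (right); each point is 1 gene, black bars are list medians and dotted lines mark 2-fold. In PC-3 cells all 4 OAS genes lie at 4.96 or above with a median of 6.94, whereas the medians of the other lists lie between -0.45 and 0.57.

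The genes whose pattern over the 4 arrays was most like that of a member were sought by the Euclidean distance between quantile-normalized profiles, each centred on its own mean. For OAS1 they were SAMD9 (distance 1.07), IFI6 (1.27) and OAS2 (1.51), and for OAS2 they were SAMD9 (0.64), RSAD2 (1.32) and IFI6 (1.44). For OAS3 they were ABCA8 (0.92), CEACAM1 (1.02) and OASL (at rank 3), and for OASL they were IRF9 (0.53), TNFSF10 (0.55) and CEACAM1 (0.61). OAS1 and OAS2 thus lay near each other, as did OAS3 and OASL, although OAS1 was at rank 4 from OAS2 and OAS3 at rank 11 from OASL. The distance from OAS1 was 4.51 to OAS3 and 5.01 to OASL, at ranks 32 and 44. Seen from the other side, OAS1 was at rank 1977 from OAS3 and at rank 9590 from OASL. The profiles were centred but not scaled, so these distances reflect the size of the differences as well as the shape over 4 arrays. Each of these genes had its highest value on the PC-3 shTNFRSF13B array. How much each array added to a distance was not computed. OAS1, OAS2 and SAMD9 were under the olfactory receptor limit on both 22Rv1 arrays.

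ABCA8, a lipid transporter, was at 9.84 with shTNFRSF13B and 4.66 with the empty vector in PC-3 cells, and CEACAM1, an adhesion molecule, at 9.43 and 4.87. TNFSF10, the death receptor ligand TRAIL, was at 9.29 and 3.68. The empty vector values of these 3 genes were below the olfactory receptor limit of that array, 4.92, which bounds how closely their shapes can be set against those of OAS3 and OASL. SAMD9, an interferon-induced antiviral factor, was at 14.15 and 6.31, above the limit on both PC-3 arrays as OAS1 and OAS2 were.

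**Figure D5:**
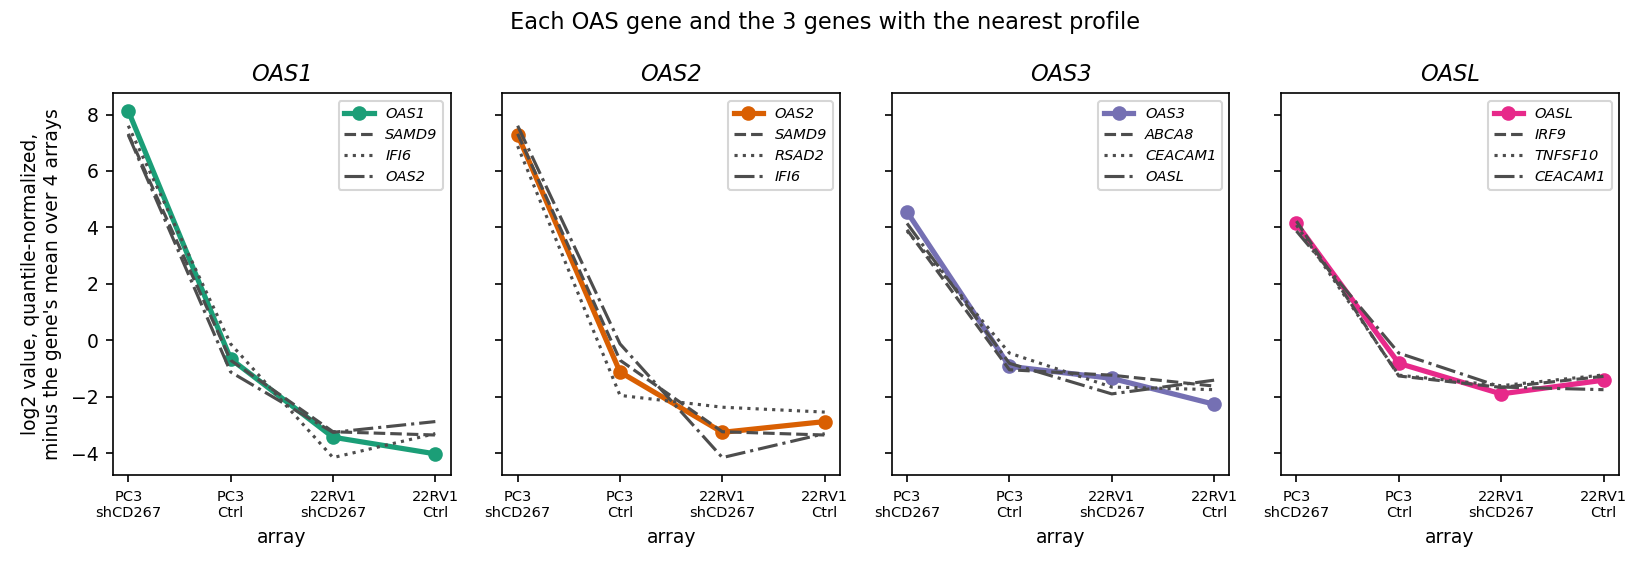
Profiles over the 4 arrays of OAS1, OAS2, OAS3 and OASL (coloured) and of the 3 genes nearest to each (grey dashed, dotted and dash-dotted), as quantile-normalized log2 values minus the gene's own mean; the lines join arrays only to guide the eye. Every profile has its highest point on the PC3 shCD267 array, and the nearest genes lie at distances of 0.53 to 1.51.

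Genes whose start region held the same GAAA pairs as OAS1 and OAS3 were counted in each line without the OAS genes themselves. Of 442 other genes with GAAANNGAAA, 74 (16.7%) were at least 2-fold higher in PC-3 cells, and of 396 with GAAANGAAA, 47 (11.9%) were. Of the 13455 genes with neither motif 717 were, 5.33%, beside the 5.76% of all genes given above. In 22Rv1 cells after quantile normalization the shares were 15.2%, 13.6% and 13.1%, beside 13.3% of all genes. The median PC-3 log2 ratio was 0.10 for genes with GAAANNGAAA, so most genes with the motif had no ratio of the size seen for OAS1 or OAS3.

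Markers of other cell types were counted on the same arrays, and their part in the OAS values was not tested. In PC-3 cells 6 of the 9 measured leukocyte markers exceeded the olfactory receptor limit with shTNFRSF13B and 4 with the empty vector. The log2 of their summed linear level was 10.56 and 11.23 on these arrays and 8.57 and 7.68 on the 22Rv1 shTNFRSF13B and empty vector arrays, and CD68 was at 10.25 and 11.06 in PC-3 cells. PTPRC, the defining leukocyte gene, was at 5.12 and 4.75 in PC-3 cells, the latter under the limit. LYZ, at 5.34 and 3.87, was the sole leukocyte marker at least 2-fold higher there, and its empty vector value was also under the limit. Of 3 plasmacytoid dendritic markers, CLEC4C and IL3RA were under the limit on all 4 arrays, whereas GZMB, a granzyme, was above it on all 4, at 8.10 and 7.76 in PC-3 cells and 8.19 and 5.76 in 22Rv1 cells. Of 5 fibroblast and 3 endothelial markers, none was at least 2-fold higher in PC-3 cells, beside 5.76% of all genes.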

How the data were processed

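RNA of 4 cultures, PC-3 and 22Rv1 cells with shTNFRSF13B or the empty vector, was hybridised to Affymetrix arrays, 1 per condition. The authors deposited log2 values, 1 per probe set and array. Affymetrix Expression Console is named both in their methods, beside Transcriptome Analysis Console, and in the submitters' processing notes, beside RMA and Partek. Program versions and the genome build are not given in the sources used here, so no gene coordinates are printed other than those of the RefSeq start regions.

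Of 24351 probe sets, 17709 had 1 gene symbol, none had several and 6642 had none listed. All 17709 gene numbers were found in RefSeq (GRCh38.p14), and 20 genes with several probe sets were taken at the brightest, which left 17687. Ratios, the 2-fold criterion, quantile normalization and loess (span 0.4) were computed in Python 3.11.15 with numpy 2.4.6, pandas 2.3.3 and statsmodels 0.14.6. The steps were tested on simulated arrays.

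The OAS members, 6 gene lists and 6 marker lists were chosen with earlier results of these arrays known. The named genes were every member, TNFRSF13B, all genes of the 2-5A list, up to 4 of each other list with the largest quantile-normalized log2 ratio in either line, the 3 nearest profiles of each member and the 5 chromosomal neighbours on each side. Other genes named, such as IFNB1, CGAS and IFNAR1, were chosen after their values were seen, and the GAAA motifs were chosen with results known. Alternatives were other scalings (quantile, median, loess, spike-in), the mean of probe sets, thresholds of 1.5-fold and 3-fold, and leaving out dim genes. Probe sequences were not used, so hybridisation between OAS paralogues was not tested.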

Additional observations from a re-analysis of the deposited data

Results flagged for a closer look

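TENT5A, a nucleotidyltransferase relative of the OAS enzymes, was past 2-fold in opposite directions in the 2 lines. It was at 8.60 with shTNFRSF13B and 6.07 with the empty vector in PC-3 cells (log2 ratio 2.54), and at 6.98 and 10.24 in 22Rv1 cells (-3.26 as deposited, -4.92 after quantile normalization). Its PC-3 log2 ratio exceeded its 22Rv1 log2 ratio by 5.80 as deposited. No condition was repeated, so this difference was not tested.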

How the results depend on the processing

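In PC-3 cells all 33 values recomputed for the family under the alternatives kept their direction and stayed within 1.5-fold of the value given, and 4 of 4 members stayed at least 2-fold higher. In 22Rv1 cells 15 values stayed within that limit and 18 moved past it, and 8 had another sign than the deposited value. These 8 were OAS2 and OASL under quantile normalization, loess and median centring, and OAS1 and the family median under median centring, with OAS2 at -0.38 and -0.21 under the first 2. The median log2 ratio over all genes in that line was 1.22 as deposited, 1.20 with spike-in centring, -0.06 after quantile normalization, -0.0097 after loess and -0.42 with median centring. Spike-in centring left the 22Rv1 values nearly in place, with OAS1 at 1.24, OAS3 at 2.54, a family median of 1.04 and 2 members at least 2-fold higher. After quantile normalization the 22Rv1 log2 ratios were 0.59 for OAS1, 0.92 for OAS3 and -0.49 for OASL, with a family median of 0.10 and a count of 0 members at least 2-fold higher. After loess they were 0.56, 0.85 and -0.44, with a median of 0.17 and a count of 0. With each array centred on the common median, OAS1 turned to -0.38 and the family median to -0.58, OAS2, OAS3 and OASL stood at -1.48, 0.92 and -0.77, and the count was 0. A threshold of 3-fold left 1 member (OAS3), and leaving out members under the olfactory receptor limit on both arrays left 1 member (OAS3) of 2. The cause of these shifts was not tested. No paired analysis was possible because each condition has 1 array. No condition could be recomputed without a replicate for the same reason.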

Other observations

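In the start regions of 45 measured genes other than OAS3, both GAAANGAAA and GAAANNGAAA were found, and 15 of these (33.3%) were at least 2-fold higher in PC-3 cells, beside 5.76% of all genes. Among them, the antiviral GTPase MX1 had a log2 ratio of 9.34, SAMD9 of 7.84, TNFSF10 of 5.61, IFI44 of 5.29 and CEACAM1 of 4.56. These are examples and not the highest in order, as TMEM140 stood above CEACAM1. SAMD9, TNFSF10 and CEACAM1 were also named above among the nearest profiles. The 15 genes were picked by a higher PC-3 shTNFRSF13B value, and the nearest profiles all had their highest value on that array. The overlap is thus partly built into the choice, and nothing is read from it. In 22Rv1 cells after quantile normalization 10 of the 45 (22.2%) were at least 2-fold higher, beside 13.3% of all genes. The highest 3 were PLSCR1 (2.88), CYBB (2.57) and PHLDB2 (2.23), whose PC-3 log2 ratios were 3.69, 0.40 and -0.06, and the 22Rv1 empty vector value of CYBB was under the olfactory receptor limit. These genes were chosen after their values were seen.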
